A study of Homo sapiens with 18 samples.

Results

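The response of MCF10A cells to an hsa-miR-28-5p mimic was compared with that to siNT, a non-targeting control siRNA, across all genes. Of the 18 RNA-seq libraries of the study, 6 belong to this comparison, 3 with siNT and 3 with the mimic, numbered 7 to 9 in each group. MCF10A is a non-tumorigenic breast epithelial line, and each RNA duplex was given at 30 nM for 72 h before polyadenylated RNA was sequenced. Another 3 MCF10A libraries received hsa-miR-708-5p, the mimic of a microRNA with the same seed, and hTERT RPE-1, a retinal pigment epithelial line made immortal with telomerase, received the same treatments. Both mimics are transfected synthetic duplexes, so the groups model an excess of the microRNA and not its natural level.

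A microRNA guides the Argonaute protein to messages that pair with its seed, the bases near its 5′ end, and such messages are usually destabilised. Most pairing that lowers an mRNA lies in the 3′UTR, and the changes seen days after transfection include those that follow from the first targets. The seed of hsa-miR-28-5p, bases 2 to 8, is AGGAGCU, and the same bases stand in capitals in the mature hsa-miR-708-5p from RefSeq.
hsa-miR-708-5p: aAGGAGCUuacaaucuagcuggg

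Among genes with a full seed match in the annotated 3′UTR, the 6 that fell furthest with a mean value of at least 100 were IMPDH1, LYPD3, SLC7A11, WSB2, JAGN1 and RSL24D1. Their sites are shown because these messages combine a site for the mimic with a large fall, and IMPDH1 and SLC7A11 recur below under purine synthesis and the amino acid response. Each sequence is 30 bases of the last exon on the strand of the gene (GRCh38), with the bases that pair with the seed in capitals.
IMPDH1 (chr7:128392880-128392909, minus strand): ctacgggttctccAGCTCCTttccaggcag
IMPDH1 (chr7:128392548-128392577, minus strand): tgtggcacttctgAGCTCCTgacctaggcc
LYPD3 (chr19:43461117-43461146, minus strand): gctttttgaggacAGCTCCTgtatccttct
LYPD3 (chr19:43460865-43460894, minus strand): ttactagactgtgAGCTCCTcgagggcagg
SLC7A11 (chr4:138168712-138168741, minus strand): gcatttagactgtAGCTCCTcagccctgtg
WSB2 (chr12:118033186-118033215, minus strand): gcgaaacaaaaatAGCTCCTtaaaagtact
JAGN1 (chr3:9893497-9893526, plus strand): caaagttctggaaAGCTCCTtttgccatct
JAGN1 (chr3:9893926-9893955, plus strand): gatgatgggtagaAGCTCCTtgagaaacct
RSL24D1 (chr15:55181380-55181409, minus strand): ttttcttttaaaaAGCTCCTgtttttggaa

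Values are the deposited normalised read counts, estimated reads per gene divided by a size factor for the library. The spacing of the low values gives 24120000 to 30150000 reads for the siNT libraries and 19370000 to 31640000 for those with hsa-miR-28-5p. The table lists only genes with a value above 0 in every MCF10A library, so genes silent in any of them are not analysed here. All 14 markers of basal breast epithelium fixed for the label check were listed, and 5 of them (KRT5, KRT14, TP63, EGFR and ITGA6) fell with the mimic. The summed basal marker value was 282968 to 295982 with siNT and 196997 to 213228 with hsa-miR-28-5p, and in bulk RNA fewer cells of a type cannot be told apart from less RNA per cell. The sum of the 6 luminal markers listed was also lower, at 11073.7 to 12348.8 with siNT and 9109.5 to 10143 with the mimic. Among these XBP1 was called lower. Of the 9 fibroblast markers 5 were not listed, COL1A1 and DCN rose, and the summed value was 1935 to 3902 with siNT and 3818 to 10936 with the mimic. The sum of the interferon-stimulated genes was 35948 to 37404 with siNT and 41924 to 50236 with hsa-miR-28-5p. Cytosolic ribosomal protein genes held 6.54 to 7.73% of the deposited values with siNT and 5.06 to 6.62% with the mimic. The library siNT replicate 8 stood apart for genes of the amino acid response: the summed value of the integrated stress response list was 105322, 72334 and 100732 in siNT replicates 7, 8 and 9. The larger results on these genes are given with and without it.

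Of the 14726 genes tested, 3347 (22.7%) were called at a limma adjusted p below 0.05, 1575 (10.7%) higher and 1772 (12.0%) lower with hsa-miR-28-5p. A change of at least 2-fold was also met by 854 of them, 584 higher and 270 lower. Larger changes among the genes tested were thus more often increases. A gene was tested if it reached 10 in 3 or more of the 9 libraries, and both mimics count towards this. A low gene that rose with both mimics could thus pass more easily than one that fell. With a floor of 50 in place of 10, 1416 genes were called higher and 1809 lower. The part of the filter in these counts was not tested. With libraries scaled to their totals instead of the median gene, the median change of all genes moved from 0.0056 to 0.1156 on the log2 scale, and the split of calls became 2272 higher (15.4%) and 1163 lower (7.90%). A fit with a block for the replicate number called 4408 genes, 2129 higher (14.5%) and 2279 lower (15.5%). The count fell to 1949 without miR-28 replicate 8, to 2099 without siNT replicate 9, to 2113 without siNT replicate 8 and to 2193 without miR-28 replicate 9. Level and length of the message went with the direction. In the third of genes with the lowest mean value over the 9 libraries, 12.28% were higher and 3.5% lower. In the third with the highest mean value, 8.01% were higher and 19.6% lower. Genes with the shortest spliced transcripts were more often lower (14.35%) than higher (7.11%), and those with the longest were more often higher (14.22%) than lower (10.36%). The part of level and length in the results below was not tested.

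**Figure D1:**
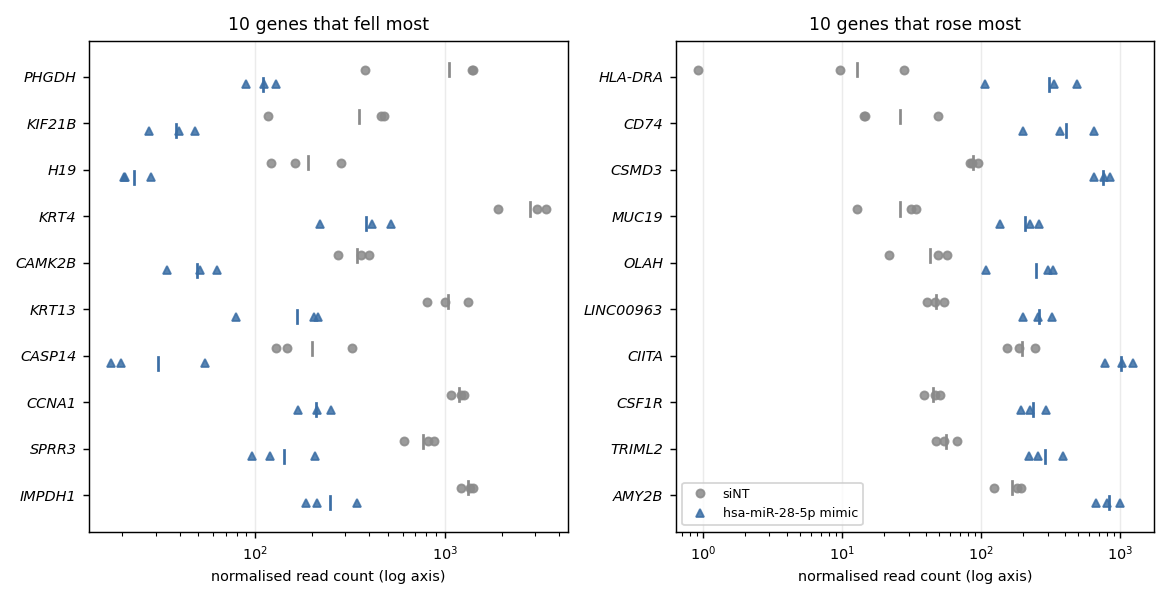
Deposited normalised read counts (log axis) of the 10 genes that fell most and the 10 that rose most with hsa-miR-28-5p, one point per library for siNT and hsa-miR-28-5p. Genes whose 3 mimic libraries overlap the 3 siNT libraries were not eligible, so the gap between the groups was set by the choice; PHGDH and KIF21B have 1 low siNT library, replicate 8.

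The 10 genes that fell most are described among those whose mean reached 100 and whose groups did not overlap. Genes of lower level, such as CA9 and CHAC1 below, had larger falls. PHGDH (chromosome 1, 119711934 to 119744215), the first enzyme of serine synthesis, was 1415, 378.2 and 1390.4 with siNT and 89.8, 111 and 129 with hsa-miR-28-5p (log2 change -3.05, standard error 0.41, limma adjusted p = 0.00081). IMPDH1, which commits purine synthesis to guanine nucleotides, was 1406, 1359 and 1223 with siNT and 345, 213 and 186 with hsa-miR-28-5p (log2 change -2.47, standard error 0.23, limma adjusted p = 0.000169). Every mimic library was below every siNT library for both, although siNT replicate 8 was far below the other siNT libraries for PHGDH. Without that library the log2 change of PHGDH was -3.68 (limma adjusted p = 2.66e-05). CCNA1, a cyclin best known from the germ line, was 1223, 1079 and 1264 with siNT and 252, 211.5 and 169.5 with hsa-miR-28-5p (log2 change -2.50, standard error 0.22, limma adjusted p = 0.000127). KIF21B, a kinesin, was 479, 118 and 464 with siNT and 48.3, 39.8 and 27.6 with hsa-miR-28-5p, again with siNT replicate 8 below the other controls. The remaining genes of the 10 were H19, an imprinted long non-coding RNA (-2.91), CAMK2B, a calmodulin-dependent kinase (-2.80), and 4 genes of stratified epithelia. These were KRT4 (-2.90) and KRT13 (-2.74), the keratin pair of mucosal epithelia, CASP14 (-2.74), a protease of cornifying keratinocytes, and SPRR3 (-2.49), a cornified envelope precursor.

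The 10 genes that rose most were chosen by the same limits. HLA-DRA (a class II antigen-presenting chain) was 9.58, 27.9 and 0.913 with siNT and 107, 486 and 331.2 with hsa-miR-28-5p, and 1 of these siNT values is below that of 3 reads. CD74, the invariant chain that escorts class II molecules, was 14.4, 48.5 and 14.7 with siNT and 200.2, 645 and 369 with hsa-miR-28-5p (log2 change 3.99, standard error 0.59, limma adjusted p = 0.00124), and CIITA, the master regulator of the class II genes, was 186, 245 and 154 with siNT and 772, 1226 and 1027 with hsa-miR-28-5p (log2 change 2.36, standard error 0.28, limma adjusted p = 0.000416). These 3 genes of class II presentation were among the 10, and the lack of overlap was a condition of the choice. CSMD3, a large transmembrane protein gene, had the smallest standard error of the 10 and was 86.2, 82.5 and 94.9 with siNT and 768, 647 and 843 with hsa-miR-28-5p (log2 change 3.08, standard error 0.17, limma adjusted p = 1.22e-05). CSF1R, the receptor for macrophage colony-stimulating factor, was 50.3, 38.6 and 46.6 with siNT and 193, 223.1 and 291 with hsa-miR-28-5p (log2 change 2.35, standard error 0.20, limma adjusted p = 0.000107). The others were MUC19, a gel-forming mucin (3.0), OLAH, a thioesterase of fatty acid synthesis (2.46), LINC00963 (2.42), TRIML2 (2.32) and AMY2B, an amylase whose near-identical copies could share its reads (2.31).

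Genes were next grouped into 71 lists of pathways and complexes and 195 families of shared symbol. A list is described below where at least 3 members were called in a direction and their share was at least 2 times that over all genes, which held for 31 lists, 23 lower and 8 higher. Medians are of log2 fold changes and can be set against 0.0056 for all genes.

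**Figure D2:**
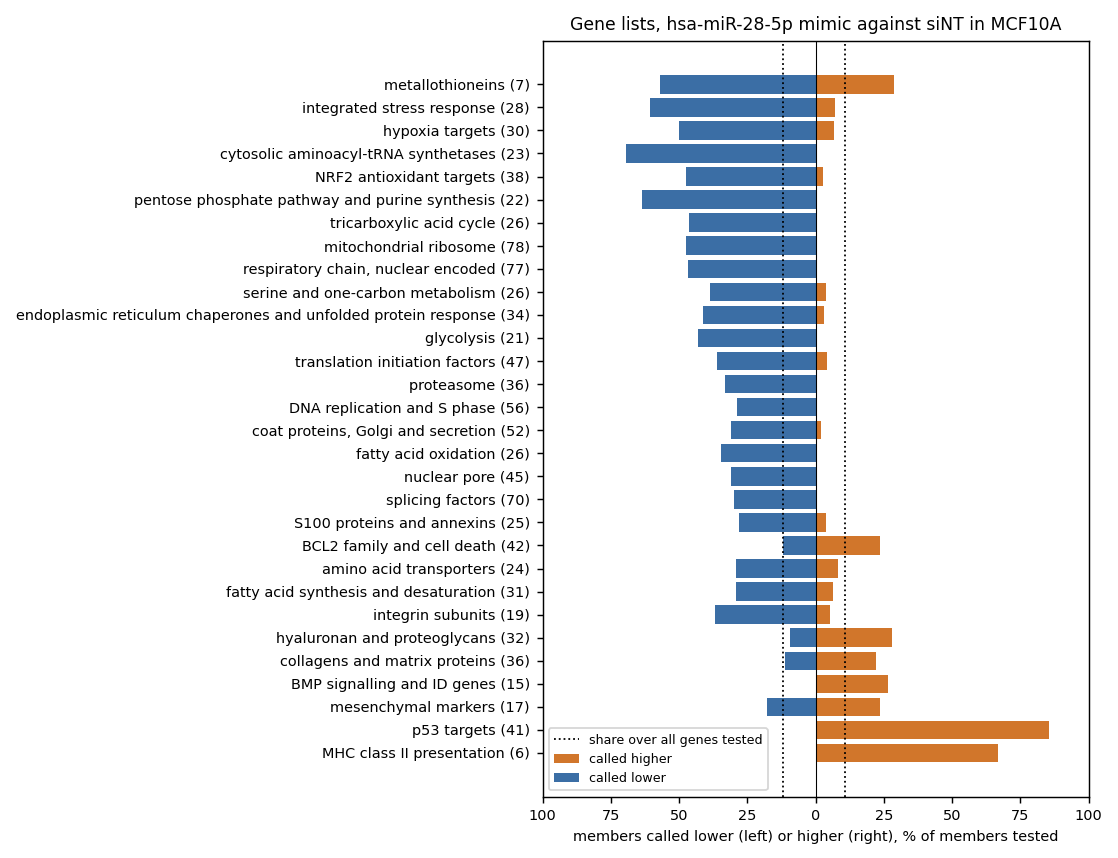
Share of the tested members of each described list that were called higher (right) or lower (left) with hsa-miR-28-5p against siNT, in percent, beside the shares over all genes, 10.7% and 12.0%. The p53 target list is the longest bar on the higher side, with 35 of 41 members, and the tRNA synthetases reach furthest on the lower side, with 16 of 23.

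Targets of p53 were the list with the largest share called in one direction. The transcription factor p53 accumulates after DNA damage or ribosomal stress and activates genes of arrest, repair and apoptosis. Of 41 genes of the list, 35 were higher (85.4%), 0 were lower, and the median was 0.81. In 36 of them every mimic library was above every siNT library, where 6162 of all genes (41.8%) showed no overlap in either direction. The summed value of the list was 80632, 78231 and 88079 with siNT and 136111, 149723 and 152015 with hsa-miR-28-5p.

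Genes of feedback, repair and apoptosis were among the 35 that rose. TP53INP1, a stress protein of autophagy and apoptosis, was 1282, 939.6 and 1352 with siNT and 4524, 4940.0 and 5170.5 with hsa-miR-28-5p (log2 change 2.05, standard error 0.13, limma adjusted p = 2.88e-05). MDM2, the ubiquitin ligase that degrades p53 and the classical feedback target, was 10798, 10045 and 12539 with siNT and 31733, 24173 and 23548 with hsa-miR-28-5p (log2 change 1.24, standard error 0.14, limma adjusted p = 0.000402). RRM2B, the p53-inducible ribonucleotide reductase subunit, was 6385, 5338 and 6517 with siNT and 13151, 16543 and 16291 with hsa-miR-28-5p (log2 change 1.33, standard error 0.13, limma adjusted p = 0.000224). In all 3 genes the lowest mimic library was above the highest siNT library. Apoptosis effectors rose too, with BAX at 559, 669 and 636 with siNT and 1221, 1292 and 1457 with hsa-miR-28-5p (log2 change 1.09, standard error 0.13, limma adjusted p = 0.000447) and BBC3 (PUMA) at 1.02 on the log2 scale. Repair genes included DDB2, a sensor of ultraviolet damage, at 542, 558 and 569.7 with siNT and 1129, 1158 and 1420.3 with hsa-miR-28-5p (log2 change 1.14, standard error 0.11, limma adjusted p = 0.000202) and XPC at 1.0. Other large increases were in the ceramidase ACER2 (1.95), the mitochondrial quality gene SPATA18 (1.67) and PIDD1 (1.56), the scaffold that activates caspase 2. The decoy receptor TNFRSF10C (2.33) rose most, from values of 22.6 to 42.2, and its near copies in the same cluster could share reads.

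The other 6 genes of the list were not called. CDKN1A, the cell cycle inhibitor p21 and a standard p53 target, was 2898, 2523 and 2847 with siNT and 2943, 3094 and 3642 with hsa-miR-28-5p and did not pass the test (log2 change 0.22, standard error 0.10, limma adjusted p = 0.131). SESN1 (-0.13), SESN2 (0.22), CCNG1 (0.04), BTG1 (0.25) and CMBL (0.34) were the others. MDM2, CDKN1A and the other genes of the list shown in the plot of p53 targets were singled out after their values were seen. A letter-by-letter search found the p53 element in 4 of 11257 promoters and in 0 of 31 of this list, in windows of 250 bases before to 50 after the start.

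**Figure D3:**
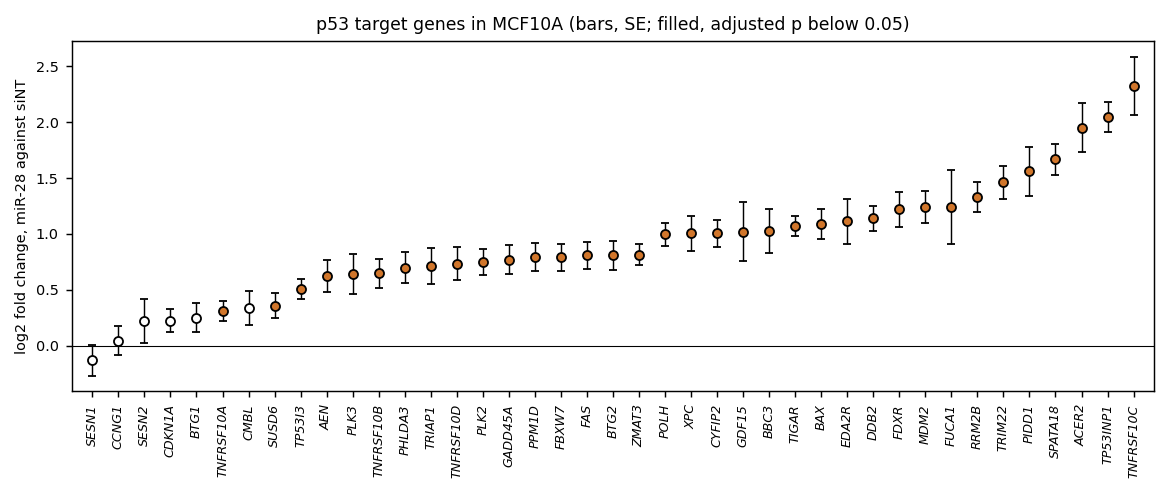
Log2 change of p53 target genes with hsa-miR-28-5p against siNT in MCF10A, ordered by value, with bars of 1 standard error. Filled points passed an adjusted p below 0.05; these 35 all lie above 0, and CDKN1A at 0.22 is among the 6 unfilled points.

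Genes of the integrated stress response fell. In this response phosphorylation of the initiation factor eIF2 favours translation of ATF4, which activates genes of amino acid synthesis, uptake and tRNA charging. Of 28 genes, 17 were lower (60.7%) and 2 higher, with a median of -0.75. The summed value was 52094, 50760 and 52373 with hsa-miR-28-5p, below each of the siNT libraries given above. Without siNT replicate 8, which stood nearest to the mimic libraries, 18 of the genes were lower, and without siNT replicate 7 or 9 the count was 12. ATF4 (chromosome 22, 39520559 to 39522686) was 12543, 10116 and 13392 with siNT and 5244, 6008 and 6029 with hsa-miR-28-5p (log2 change -1.05, standard error 0.12, limma adjusted p = 0.000322). ASNS, asparagine synthetase, was 4749.7, 1120.0 and 5293 with siNT and 764, 811 and 621 with hsa-miR-28-5p (log2 change -2.06, standard error 0.45, limma adjusted p = 0.00893), and TRIB3, a pseudokinase that feeds back on ATF4, was 1821, 1109.9 and 1995 with siNT and 433, 425 and 456 with hsa-miR-28-5p (log2 change -1.86, standard error 0.19, limma adjusted p = 0.000241). CHAC1, which degrades glutathione, was 163, 15 and 159.8 with siNT and 8.04, 5.80 and 3.94 with hsa-miR-28-5p. It passed the filter of 10 in 3 libraries only through its siNT values, so a fall was the only result open to it. With any 1 siNT library left out CHAC1 was not tested. In these 3 target genes siNT replicate 8 was the lowest control, and it still exceeded every mimic library. SLC7A11, the cystine and glutamate antiporter whose site is printed above, was 2989, 1054 and 4068 with siNT and 719, 454 and 429 with hsa-miR-28-5p (log2 change -2.17, standard error 0.39, limma adjusted p = 0.00348). Without siNT replicate 8 the log2 changes were -1.17 for ATF4, -2.78 for ASNS, -2.12 for TRIB3 and -2.74 for SLC7A11. GPT2 (-1.61), a mitochondrial alanine transaminase, fell as well. The 2 genes that rose were ATF5 (0.59) and GDF15 (1.02), a secreted stress cytokine also on the p53 list, whose call was lost without siNT replicate 8, miR-28 replicate 8 or miR-28 replicate 9. DDIT3 (CHOP), the death-promoting factor of the pathway, was 151, 152 and 215 with siNT and 127, 267 and 285 with hsa-miR-28-5p, with overlapping groups and no call.

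Enzymes that charge tRNA fell as well. Of 23 cytosolic aminoacyl-tRNA synthetases, 16 were lower (69.6%) and 0 higher, and the median was -0.50. Their summed value was 171352, 136375 and 165434 with siNT and 99275, 106130 and 106029 with hsa-miR-28-5p. CARS1, for cysteine, was 3199, 1804 and 3140.3 with siNT and 884, 981 and 914 with hsa-miR-28-5p (log2 change -1.50, standard error 0.19, limma adjusted p = 0.00053), and GARS1, for glycine, was 11123, 5919 and 11341 with siNT and 3726, 3636 and 3791 with hsa-miR-28-5p (log2 change -1.29, standard error 0.21, limma adjusted p = 0.00218). AARS1 (-1.05), WARS1 (-0.88) and IARS1 (-0.87), for alanine, tryptophan and isoleucine, followed. Without siNT replicate 8 the count of lower members was 14, and leaving out other single libraries gave 13 to 15.

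Serine and one-carbon enzymes and amino acid transporters were lower in part. In the serine and one-carbon list 10 of 26 were lower (38.5%) and 1 higher. SHMT2, the mitochondrial serine hydroxymethyltransferase, was 4099.9, 3528 and 4571 with siNT and 1546, 1714 and 1607 with hsa-miR-28-5p (log2 change -1.32, standard error 0.12, limma adjusted p = 0.000122). GLDC of the glycine cleavage system fell by 1.61 on the log2 scale, a call lost without siNT replicate 7 or miR-28 replicate 9. CBS of transsulfuration was 112, 33.9 and 197 with siNT and 20.8, 31.1 and 25.9 with hsa-miR-28-5p, and its reads could be shared with the near copy CBSL. PSAT1, the next enzyme after PHGDH, was 7179, 3429 and 8104 with siNT and 2946, 3481 and 3555 with hsa-miR-28-5p, with overlapping groups through siNT replicate 8. The calls of CBS and PSAT1 were lost without any library but siNT replicate 8. The count of lower members in this list was 9 without siNT replicate 8, 6 without siNT replicate 7, siNT replicate 9 or miR-28 replicate 8, and 5 without miR-28 replicate 9. Among amino acid transporters, 7 of 24 were lower (29.2%) and 2 higher, and 9 were lower without siNT replicate 8. SLC1A5, which imports glutamine, was 7789, 5187 and 7119 with siNT and 2728, 2789 and 2891 with hsa-miR-28-5p (log2 change -1.24, standard error 0.15, limma adjusted p = 0.00047).

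Promoters of the tRNA synthetases often held the element bound by ATF4 and its partners. The letters TGATGNAA, searched on both strands of 300 bases around the start (RefSeq, GRCh38.p14), occurred in 6 of 19 tRNA synthetases with a promoter (31.6%), in 4 of 23 stress response genes (17.4%), in 4 of 21 amino acid transporters (19%), in 1 of 19 serine and one-carbon genes (5.26%) and in 1.83% of all 11257 promoters. All 6 of these synthetases fell. Windows of 30 bases on the gene's strand are shown with the match in capitals, for 3 synthetases and for the 2 most changed stress response genes that had one. TTGCATCA is TGATGCAA read on the other strand.
CARS1 (chr11:3057407-3057436, minus strand): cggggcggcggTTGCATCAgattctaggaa
AARS1 (chr16:70289675-70289704, minus strand): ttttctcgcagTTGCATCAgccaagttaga
IARS1 (chr9:92293692-92293721, minus strand): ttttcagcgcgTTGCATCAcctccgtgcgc
ASNS (chr7:97872458-97872487, minus strand): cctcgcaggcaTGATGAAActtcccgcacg
CHAC1 (chr15:40953251-40953280, plus strand): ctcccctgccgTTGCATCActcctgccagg

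**Figure D4:**
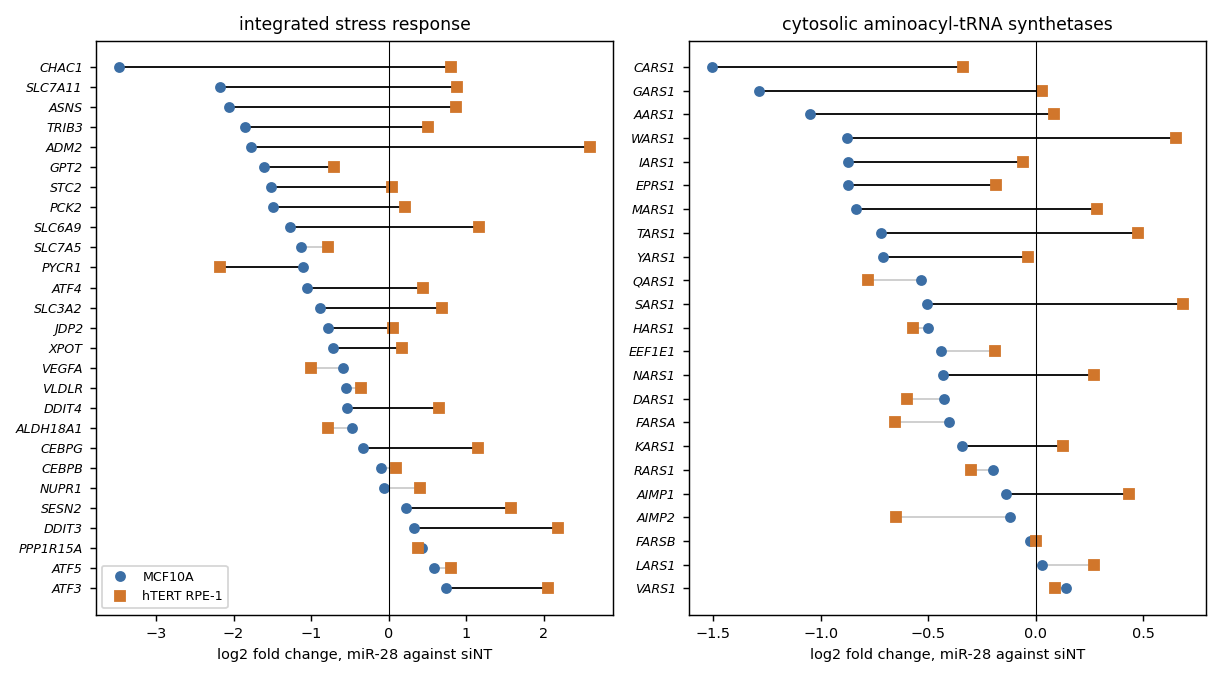
Log2 changes of the mimic against siNT in MCF10A and in hTERT RPE-1 for genes of the integrated stress response and the cytosolic tRNA synthetases. The stress response genes have a median of -0.79 in MCF10A against 0.45 in hTERT RPE-1. Of 27 such genes, 18 had a higher fold change in hTERT RPE-1 at an adjusted p below 0.05 and 1 a lower one. Of 23 tRNA synthetases, 13 had a higher one and 0 a lower one.

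The same genes responded otherwise in hTERT RPE-1, where the difference of the fold changes between the lines was tested. The genes and lists given here were picked by their change in MCF10A, which favours a smaller change in the other line. Over all 13339 genes tested in both lines, 1614 (12.1%) had a higher and 1513 (11.3%) a lower fold change in hTERT RPE-1 than in MCF10A. Among 27 stress response genes, 18 were higher in hTERT RPE-1 (66.7%) and 1 lower, with medians of -0.79 (MCF10A) and 0.45 (hTERT RPE-1). ATF4 changed by -1.05 in MCF10A and 0.45 in hTERT RPE-1, a difference of 1.5 (Welch t-test adjusted p = 3.26e-06). ASNS differed by 2.93 (Welch t-test adjusted p = 0.000868) and PHGDH by 3.12 (Welch t-test adjusted p = 0.000274). Without siNT replicate 8 of MCF10A these differences were 1.62, 3.65 and 3.75, and 18 of 26 stress response genes were higher in hTERT RPE-1. Of the 23 tRNA synthetases, 13 were higher in hTERT RPE-1 (56.5%) and 0 lower (13 and 1 without that library), and their median there was 0.003. Of 56 DNA replication genes, 21 were higher in hTERT RPE-1 (37.5%) and 0 lower, with medians of -0.24 and 0.31. The p53 targets had like medians in both lines, 0.81 and 0.88, with 5 of 40 higher and 8 lower in hTERT RPE-1. The difference was not confined to the amino acid response. Of 40 interferon-stimulated genes, 33 were higher in hTERT RPE-1 (82.5%) and 0 lower, with medians of 0.56 (MCF10A) and 3.595 (hTERT RPE-1).

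Nuclear genes of mitochondrial energy metabolism were lower. The tricarboxylic acid cycle oxidises fuel in mitochondria, the respiratory chain turns the electrons into ATP, and mitochondrial ribosomes make the subunits encoded in the organelle, whose own genes are not analysed here. For the cycle, 12 of 26 genes were lower (46.2%), 0 higher, and all 26 log2 fold changes were below 0. DLAT, of the pyruvate dehydrogenase complex that feeds the cycle, was 5942, 5244 and 5855 with siNT and 3459, 2700.1 and 2442 with hsa-miR-28-5p (log2 change -1.0, standard error 0.19, limma adjusted p = 0.00503). For nuclear-encoded respiratory chain subunits, 36 of 77 were lower (46.8%), 0 higher, and all 77 log2 fold changes were below 0, with a median of -0.33. ATP5F1A, the alpha subunit of ATP synthase, was 21072, 21512 and 21925 with siNT and 11007, 12127 and 11621 with hsa-miR-28-5p (log2 change -0.89, standard error 0.12, limma adjusted p = 0.00081). Most subunits changed less: the lower members ranged from -0.89 to -0.29 (NDUFV1, whose call was lost without any library but miR-28 replicate 9). The mitochondrial ribosome had 37 of 78 lower (47.4%), 0 higher and a median of -0.35, led by MRPL12 (-0.86).

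These small changes depended on the number of libraries. The respiratory chain count was 22 without siNT replicate 8, 18 without siNT replicate 9 and 21 without miR-28 replicate 8. For mitochondrial ribosomal proteins it was 23 without siNT replicate 8 and 24 without siNT replicate 9. Their transcripts are short, with median spliced lengths of 804 bases (respiratory chain) and 1242 bases (mitochondrial ribosome) against 3231 for all genes. Among the third of genes with the shortest transcripts, 30 of 62 respiratory chain genes (48.4%) and 32 of 65 mitochondrial ribosomal genes (49.2%) were lower, against 13.9% of the other genes of that length. The summed respiratory chain value was 277834, 291208 and 295451 with siNT and 208504, 220474 and 232783 with the mimic, so the groups did not overlap.

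Hypoxia-inducible and glycolytic genes were lower as well. Of 30 hypoxia targets 15 fell (50%) and 2, P4HA2 and RORA, rose, both calls that were lost without any 1 siNT library. CA9, the membrane carbonic anhydrase used as a hypoxia marker, was 136, 229 and 138 with siNT and 8.04, 7.46 and 27.6 with hsa-miR-28-5p (log2 change -3.66, standard error 0.46, limma adjusted p = 0.000576). NDRG1, induced by stress and low oxygen, was 13318, 13316 and 8458 with siNT and 3479, 4380.3 and 4329.9 with hsa-miR-28-5p (log2 change -1.50, standard error 0.17, limma adjusted p = 0.000322). VEGFA, the angiogenic growth factor, was 4291, 3931 and 3752 with siNT and 2557, 2745 and 2617 with hsa-miR-28-5p (log2 change -0.59, standard error 0.09, limma adjusted p = 0.00159), and ADM, a target usually raised with it, was 212, 300.0 and 309 with siNT and 204, 287 and 387 with hsa-miR-28-5p with no call. Of 21 glycolysis genes, whose median level of 8252 is above the 565 of all genes, 9 were lower (42.9%) and 0 higher. As a share of the library total the list overlapped between the groups. It was 1.343, 1.509 and 1.331% with siNT and 1.12, 1.262 and 1.374% with hsa-miR-28-5p. ALDOC, an aldolase, was 557, 442 and 403 with siNT and 154, 151 and 125 with hsa-miR-28-5p (log2 change -1.69, standard error 0.18, limma adjusted p = 0.000262), and the glucose transporter SLC2A1 fell by 1.08. GAPDH, often taken as a stable reference, was 70704, 77340.2 and 66761 with siNT and 43076, 48118 and 54983 with hsa-miR-28-5p (log2 change -0.56, standard error 0.15, limma adjusted p = 0.0225), a call that was lost without siNT replicate 7, siNT replicate 8 or miR-28 replicate 8. The core of the hypoxia response element, ACGTG, occurred in 12 of 23 promoters of the hypoxia list (52.2%) and in 26.3% of all promoters. For CA9, the gene of the list that fell most, it lies next to the start, in capitals on the opposite strand.
CA9 (chr9:35673897-35673926, plus strand): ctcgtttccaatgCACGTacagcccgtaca

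Genes of nucleotide synthesis and NADPH supply were lower. The pentose phosphate pathway makes NADPH and ribose phosphate, which purine synthesis builds on. Of 22 genes, 14 were lower (63.6%), 0 higher, and all 22 log2 fold changes were below 0. Besides IMPDH1, PGD was 5632, 5980.1 and 5320.4 with siNT and 3064, 2545 and 2673 with hsa-miR-28-5p (log2 change -1.03, standard error 0.16, limma adjusted p = 0.00192) and ADSS2, of adenine nucleotide synthesis, was 7524, 7739 and 7966 with siNT and 4038, 4304 and 3373 with hsa-miR-28-5p (log2 change -0.99, standard error 0.14, limma adjusted p = 0.00107). The salvage enzyme HPRT1 fell by 0.92 and the transketolase TKT by 0.86. The count was 9 without siNT replicate 8 or miR-28 replicate 8. Among targets of NRF2, the factor that answers oxidants and electrophiles, 18 of 38 were lower (47.4%) and 1, ABCC2, was higher. NQO1, the quinone reductase, was 3373, 4052 and 4116 with siNT and 1692, 1782 and 1883 with hsa-miR-28-5p (log2 change -1.10, standard error 0.11, limma adjusted p = 0.000254), and the mRNA of NRF2 itself, NFE2L2, fell by 0.84. GCLM, of glutathione synthesis, fell by 0.59, a call lost without siNT replicate 8 or 9 or miR-28 replicate 8 or 9, whereas TXNRD1, thioredoxin reductase, was 3354, 3928 and 3939 with siNT and 3253, 4078 and 3849.8 with hsa-miR-28-5p. The list thus did not move as a whole, and its aldo-keto reductases AKR1C2 and AKR1C3 are near copies whose reads can be split. The core letters of the antioxidant response element, TGACNNNGC, were in 8 of 27 promoters of the list (29.6%) and in 15% of all.

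Metallothioneins, small proteins that bind zinc and copper, were lower, and the list of 7 genes, with a median spliced length of 425 bases, had 4 lower (57.1%) and 2 higher. MT2A was 8730.1, 12541 and 10747 with siNT and 2570.2, 3489 and 3786 with hsa-miR-28-5p (log2 change -1.70, standard error 0.18, limma adjusted p = 0.000254), and MT1E was 2329, 4060.4 and 3545 with siNT and 959, 1361 and 1784 with hsa-miR-28-5p (log2 change -1.28, standard error 0.29, limma adjusted p = 0.00991). MT1X (-1.67) and MT1L (-2.26) also fell, while 2 partners on the list rose, the zinc exporter SLC30A1 (0.76) and the zinc-sensing factor MTF1 (0.32). Without siNT replicate 8, 2 of the genes were lower instead of 4, as MT1X and MT1L lost their calls. The call of MTF1 was lost without siNT replicate 7 or 9 or miR-28 replicate 8 or 9, and metallothioneins resemble each other enough for reads to be shared.

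Lipid enzymes moved in smaller number. Of 31 genes of fatty acid synthesis, 9 were lower (29%) and 2 higher, led by SCD, the stearoyl-CoA desaturase, at 61593, 53431 and 44450.2 with siNT and 27929, 18425 and 19313 with hsa-miR-28-5p (log2 change -1.29, standard error 0.26, limma adjusted p = 0.00618). ACSS2, which makes acetyl-CoA from acetate, fell by 1.15. The count was 5 without siNT replicate 7 or miR-28 replicate 8. In fatty acid oxidation 9 of 26 were lower (34.6%) and 0 higher, or 5 without siNT replicate 9, with ACAA2 at 3202, 2953 and 3159.6 with siNT and 1520.4, 1571 and 1609 with hsa-miR-28-5p (log2 change -0.99, standard error 0.09, limma adjusted p = 0.000134).

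Genes of the secretory pathway were lower as well. The endoplasmic reticulum folds secreted proteins and answers overload with the unfolded protein response. In that list 14 of 34 were lower (41.2%), 1 higher, and the median was -0.29. The disulphide isomerase TXNDC5 was 5443, 6333 and 5708 with siNT and 2446, 2659 and 2409 with hsa-miR-28-5p (log2 change -1.22, standard error 0.13, limma adjusted p = 0.000262), and XBP1, a transcription factor of the response, was 3032, 2272 and 3419 with siNT and 1211, 1552 and 1570.1 with hsa-miR-28-5p (log2 change -1.0, standard error 0.15, limma adjusted p = 0.0014). EDEM1 (-1.13), MANF (-1.01) and FKBP14 (-1.16) also fell. The count was 9 without miR-28 replicate 8 or 9. Of 52 coat, Golgi and secretion genes 16 were lower (30.8%) and 1 higher, or 9 lower without siNT replicate 8. Here ARF5, a small GTPase of coat recruitment, was 1152, 1048 and 1211 with siNT and 586, 410.5 and 424 with hsa-miR-28-5p (log2 change -1.28, standard error 0.17, limma adjusted p = 0.000843), and SSR2, of the translocon-associated complex, was 4296, 4584 and 4524 with siNT and 2081, 2367 and 2473 with hsa-miR-28-5p (log2 change -0.96, standard error 0.09, limma adjusted p = 0.000153).

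Proteasome subunits were lower in part. Of 36 subunits 12 were lower (33.3%) and 0 higher, with a median of -0.24. Large falls were found in a pair of subunits, PSMA5 at 2897, 3183 and 3061 with siNT and 1349, 1397 and 1290.2 with hsa-miR-28-5p (log2 change -1.18, standard error 0.13, limma adjusted p = 0.000283) and PSMB2 (-1.22), and the others that were called lay between -0.57 (PSMB7) and -0.28 (PSMA4, whose call was lost without any 1 library). The count was 5 with libraries scaled to their totals, 5 without siNT replicate 8, siNT replicate 9 or miR-28 replicate 8, and 6 without miR-28 replicate 7.

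Genes of translation initiation, splicing and nuclear transport were lower in part. Of 47 translation initiation factors, at a median level of 5808, 17 were lower (36.2%) and 2 higher. EIF4B, which assists the helicase at the cap, was 44684, 44900.1 and 48122 with siNT and 21687, 27303 and 26043 with hsa-miR-28-5p (log2 change -0.88, standard error 0.13, limma adjusted p = 0.00107). EIF4EBP1, the inhibitor of cap binding and an ATF4 target, was 1665, 1147 and 1903 with siNT and 709, 562 and 784 with hsa-miR-28-5p (log2 change -1.18, standard error 0.20, limma adjusted p = 0.00249). EIF2S3, the gamma subunit of eIF2, fell by 0.96. For splicing factors the counts were 21 of 70 lower (30.0%) and 0 higher, with HNRNPC at 20876, 23338 and 21096 with siNT and 10727, 10167 and 9236 with hsa-miR-28-5p (log2 change -1.12, standard error 0.14, limma adjusted p = 0.000513) and SNRPA, of the U1 particle, at 1835, 1974 and 1807 with siNT and 1093, 1033 and 1084 with hsa-miR-28-5p (log2 change -0.81, standard error 0.09, limma adjusted p = 0.000376). Nuclear pore and import genes had 14 of 45 lower (31.1%) and 0 higher, with the importin KPNB1 at 17605, 18898 and 16242 with siNT and 10015, 9180.1 and 7839.9 with hsa-miR-28-5p (log2 change -0.97, standard error 0.17, limma adjusted p = 0.00324).

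The splicing and nuclear pore counts depended on the scaling and on single libraries. With libraries scaled to their totals they were 11 and 8. For splicing factors the count was 9 without siNT replicate 8 or 9, 10 without miR-28 replicate 8 and 13 without miR-28 replicate 9. For nuclear pore genes it was 7 without siNT replicate 7, siNT replicate 8 or miR-28 replicate 8, 8 without siNT replicate 9 and 9 without miR-28 replicate 9. Splicing factors are abundant, and 64 of the 70 lie in the third of genes with the highest values. There 29.7% of them were lower, against 19.5% of the other genes of that level. The nuclear pore, proteasome, glycolysis and coat, Golgi and secretion lists are abundant too, with median levels of 2624, 2667, 8252 and 2732. They were not split by level, and 19.6% of all genes in the third with the highest values were lower.

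Zinc finger genes were more often higher than lower. The family of symbols that begin with ZNF mostly encodes transcription factors with tandem zinc fingers, many of which silence transposons. Of 465 tested, 114 were higher (24.5%), 15 lower (3.23%), and the median was 0.30. ZNF493 was 259, 300.0 and 351 with siNT and 1183, 984 and 693 with hsa-miR-28-5p (log2 change 1.63, standard error 0.21, limma adjusted p = 0.000614), ZNF850 was 27.5, 49.3 and 40.2 with siNT and 133, 128 and 100.5 with hsa-miR-28-5p, and ZNF404 was 49.1, 46.1 and 39.3 with siNT and 107, 126 and 108 with hsa-miR-28-5p. The groups did not overlap in these 3 genes. Their median level, 325, is below the 565 of all genes, so the shares were also taken by level. Among genes of middle level 66 of 230 members (28.7%) were higher against 11% of other genes, among those of low level 35 of 180 (19.4%) against 12%, and among those of high level 13 of 55 (23.6%) against 7.83%. The count of 114 was 59 without miR-28 replicate 8, 71 without siNT replicate 8 and 74 without siNT replicate 7.

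Of the 195 families 49 passed the limits, 23 higher, 25 lower and 1, ATF, in both directions, and those described here were chosen after their values were seen. Over all genes 10.7% were higher and 12.0% lower, and in small families few genes make the difference from these shares. Among families that passed on the lower side, many of whose members are on the lists above, were PDCD (5 of 11 lower, 45.5%) and ALDH, aldehyde dehydrogenases (5 of 16, 31.2%). CCT, mostly chaperonin subunits (3 of 10, 30.0%), and EXOSC, subunits of the RNA exosome (3 of 10, 30.0%), passed too. Among those on the higher side were ABCA, lipid transporters (4 of 11 higher), and CFAP, proteins of cilia and flagella (4 of 16). HERC, a set of symbols that includes large ubiquitin ligases, was another (3 of 11, 27.3%). Of 13 NBPF genes, recent duplicates of chromosome 1 whose reads can be split between copies, 9 were higher, among them NBPF14 at 1984, 1638 and 2070.3 with siNT and 3525, 3638 and 3644 with hsa-miR-28-5p (log2 change 0.93, standard error 0.11, limma adjusted p = 0.000364). The NBPF count was 3 without siNT replicate 9, miR-28 replicate 8 or miR-28 replicate 9, 4 without siNT replicate 7 and 5 without siNT replicate 8. Of 28 KLHL genes, adaptors of ubiquitin ligases, 6 were higher (21.4%) and 0 lower, with KLHL20 at 0.50. The KLHL count was 1 without miR-28 replicate 8, 2 without siNT replicate 8 and 3 without siNT replicate 7 or 9. In the CEP family of centrosomal proteins 8 of 36 were higher (22.2%) and 3 lower (8.33%), with CEP85L at 0.94. The higher count there was 13 with libraries scaled to their totals, 4 without siNT replicate 8 and 5 without siNT replicate 7, siNT replicate 9 or miR-28 replicate 8, and the lower count was 1 without siNT replicate 7, siNT replicate 9, miR-28 replicate 8 or miR-28 replicate 9.

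Cell cycle genes were counted by phase. Of 56 genes of DNA replication, 16 were lower (28.6%) and 0 higher, with a median of -0.24. RFC3, of the clamp loader, was 953, 956 and 1043 with siNT and 491, 439.5 and 388 with hsa-miR-28-5p (log2 change -1.17, standard error 0.18, limma adjusted p = 0.00189), and CCNE1, the cyclin of S phase entry, was 297, 470.3 and 413 with siNT and 237, 189.9 and 187 with hsa-miR-28-5p (log2 change -0.92, standard error 0.23, limma adjusted p = 0.0152). The helicase subunits MCM6 (-0.75), MCM2 (-0.61), MCM3 (-0.58) and MCM4 (-0.43) fell. The call of MCM4 was lost without any 1 library, that of CCNE1 without siNT replicate 8 or 9 or miR-28 replicate 8 or 9, and that of MCM2 without siNT replicate 8, siNT replicate 9 or miR-28 replicate 8. The count of the list was 7 without siNT replicate 8 or 9, 8 without miR-28 replicate 8 or 9, and 10 with libraries scaled to their totals. Of 71 mitosis genes 8 were higher (11.3%) and 5 lower (7.04%), near the shares over all genes. CDK1, the mitotic kinase, rose by 0.39, a call lost without siNT replicate 7 or 9 or miR-28 replicate 8 or 9, MAD2L1 of the spindle checkpoint fell by 1.0, and CCNA2 was 2362, 2842 and 2581 with siNT and 2441, 2689.8 and 2645 with hsa-miR-28-5p.

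Some basal epithelial genes and adhesion receptors were lower. KRT14, the basal keratin, was 32508, 42198 and 33214 with siNT and 12599, 10216 and 10013 with hsa-miR-28-5p (log2 change -1.71, standard error 0.18, limma adjusted p = 0.000262), whereas its partner KRT5 changed less, at 74171, 89713 and 88362 with siNT and 56929, 59604 and 66629 with hsa-miR-28-5p (log2 change -0.46, standard error 0.15, limma adjusted p = 0.0489). The calls of KRT5 and EGFR were lost without any 1 library and with libraries scaled to their totals. TP63, the transcription factor of basal epithelia, was 3297, 2950.4 and 3554 with siNT and 2059, 1373 and 1286 with hsa-miR-28-5p (log2 change -1.08, standard error 0.21, limma adjusted p = 0.00461). Of 19 integrin subunits 7 were lower (36.8%) and 1, ITGA10, higher, the latter a call lost without siNT replicate 7 or 8 or miR-28 replicate 8 or 9. ITGA6, the alpha chain of the hemidesmosome, was 33892, 27978 and 26527 with siNT and 17544, 14089 and 13716 with hsa-miR-28-5p (log2 change -0.96, standard error 0.19, limma adjusted p = 0.00552), and ITGA5, of the fibronectin receptor, was 3296, 3638 and 3433 with siNT and 1339, 1899.9 and 2102 with hsa-miR-28-5p (log2 change -0.98, standard error 0.21, limma adjusted p = 0.00738). The hyaluronan receptor CD44 was 25002, 23451 and 27899 with siNT and 13463, 11740.2 and 11928 with hsa-miR-28-5p (log2 change -1.04, standard error 0.13, limma adjusted p = 0.000626). The integrin median, -0.0006 before the median of all genes is taken off, was -0.0062 after it, -0.3247 when only genes that reached 50 were tested, -0.3087 without miR-28 replicate 7 and 0.0293 without siNT replicate 9. Of 25 S100 proteins and annexins, calcium-binding proteins with a median level of 4503 and a median length of 1054 bases, 7 were lower (28%) and 1 higher, with S100A14 at 22244, 19837 and 20693 with siNT and 11451, 8682 and 8939 with hsa-miR-28-5p (log2 change -1.12, standard error 0.22, limma adjusted p = 0.00543) and S100A2 at 21251, 23486 and 22256 with siNT and 12247, 8994 and 11428 with hsa-miR-28-5p (log2 change -1.05, standard error 0.17, limma adjusted p = 0.00243). That count was 4 without siNT replicate 7, siNT replicate 9, miR-28 replicate 8 or miR-28 replicate 9.

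Some matrix genes rose. Of 36 collagens and matrix proteins 8 were higher (22.2%) and 4 lower, or 2 lower without siNT replicate 8. COL16A1, a fibril-associated collagen, was 655, 929.9 and 838 with siNT and 1587, 1786 and 2206 with hsa-miR-28-5p (log2 change 1.20, standard error 0.17, limma adjusted p = 0.00116), and FBN1, the microfibril protein, was 218, 294.6 and 299 with siNT and 475, 646 and 879 with hsa-miR-28-5p (log2 change 1.27, standard error 0.29, limma adjusted p = 0.0105). COL1A1 was 107, 104 and 89.5 with siNT and 298, 215 and 196 with hsa-miR-28-5p (log2 change 1.21, standard error 0.22, limma adjusted p = 0.00343) and COL6A3 was 27.5, 36.4 and 42.9 with siNT and 12.1, 9.12 and 16.8 with hsa-miR-28-5p, a fall whose call was lost without any 1 library. In the COL family 7 of 24 were higher (29.2%), or 4 without siNT replicate 7 or miR-28 replicate 9. Among hyaluronan and proteoglycan genes 9 of 32 were higher (28.1%) and 3 lower, but 2 were higher without miR-28 replicate 8 and 4 without miR-28 replicate 9. VCAN, versican, was 1818, 2149 and 2517 with siNT and 3119.9, 5132 and 5974 with hsa-miR-28-5p, and DCN, decorin, was 1385, 3200.1 and 2621 with siNT and 3022, 8939.8 and 10006 with hsa-miR-28-5p, with miR-28 replicate 7 lower than the other mimic libraries in both. The groups overlapped for DCN and not for VCAN, and in DCN each mimic library was above the siNT library of the same number. Their calls were lost without siNT replicate 7, miR-28 replicate 8 or miR-28 replicate 9, and that of DCN also without siNT replicate 9. COL1A1 and DCN are themselves in the fibroblast marker sum given above, and DCN makes up most of it in each library of this comparison. That sum is thus no separate measure beside these genes, and its part in the result was not tested.

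Mesenchymal markers moved both ways, and a few BMP genes rose. Of 17 mesenchymal markers 4 were higher (23.5%) and 3 lower (17.6%), against 10.7% and 12.0% of all genes. Their log2 fold changes were above 0 in 10 and below 0 in 7, so the list did not move as a whole. The markers named here are among the 4 that rose. TAGLN, an actin-binding protein of smooth muscle, was 61.8, 98 and 71.7 with siNT and 203, 129.9 and 158 with hsa-miR-28-5p (log2 change 1.08, standard error 0.23, limma adjusted p = 0.00753). ZEB1, a repressor of epithelial genes, was 222.8, 387 and 319.6 with siNT and 454, 758 and 727 with hsa-miR-28-5p (log2 change 1.06, standard error 0.34, limma adjusted p = 0.0453), a call lost without siNT replicate 7, 8 or 9 or without miR-28 replicate 8 or 9. The count of higher markers was 8 with the replicate number as a block, 7 without miR-28 replicate 7, and 2 without siNT replicate 7, siNT replicate 8, miR-28 replicate 8 or miR-28 replicate 9. Of 15 BMP and ID genes 4 were higher (26.7%) and 0 lower. The ligand BMP2 was 303, 232 and 207 with siNT and 367, 490.1 and 460.3 with hsa-miR-28-5p (log2 change 0.83, standard error 0.17, limma adjusted p = 0.00585), ID3, an inhibitor of differentiation factors, was 621, 594 and 615 with siNT and 892, 1059.8 and 1163 with hsa-miR-28-5p (log2 change 0.76, standard error 0.12, limma adjusted p = 0.00189), and ID1, usually its companion, was 1628, 1739 and 1535 with siNT and 1427, 1598 and 1568 with hsa-miR-28-5p with no call.

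Immune and death ligands and receptors rose beyond the interferon list. In class II presentation 4 of the 6 listed genes were higher (66.7%), and besides those above HLA-DMA was 7.18, 23.6 and 9.13 with siNT and 22.8, 57.2 and 56.2 with hsa-miR-28-5p, with overlapping groups and a call that was lost without siNT replicate 7 or 9 or miR-28 replicate 8 or 9, although each mimic library was above the siNT library of the same number. Of 10 TNFSF ligands 4 were higher and 1 lower, with TNFSF14 (LIGHT) at 1302, 2139 and 1730.0 with siNT and 4180.4, 4998 and 3767 with hsa-miR-28-5p (log2 change 1.34, standard error 0.19, limma adjusted p = 0.00103) and TNFSF9, the ligand of 4-1BB, at 468, 375 and 290.3 with siNT and 678, 696 and 841 with hsa-miR-28-5p (log2 change 0.99, standard error 0.20, limma adjusted p = 0.00649). Of 13 TNFRSF receptors 5 were higher and 2 lower, and 4 of the 5 were the TRAIL receptors and decoys TNFRSF10A to TNFRSF10D, all on the p53 list. TNFRSF10B, the death receptor DR5, was 7619, 7582 and 8906 with siNT and 10944, 12675 and 14263 with hsa-miR-28-5p (log2 change 0.65, standard error 0.13, limma adjusted p = 0.00596), while TNFRSF6B, a soluble decoy, was 113, 114 and 126 with siNT and 37.4, 29.1 and 36.1 with hsa-miR-28-5p (log2 change -1.76, standard error 0.28, limma adjusted p = 0.00188). The TNFRSF count was 3 without any 1 siNT library or without miR-28 replicate 9, and TNFRSF10A (0.31) lost its call in each of these settings and without miR-28 replicate 7. In the BCL2 and cell death list 10 of 42 were higher (23.8%) and 5 lower (11.9%). CASP10 (1.22, a call lost without siNT replicate 9, miR-28 replicate 7 or miR-28 replicate 8), CASP8 (0.62), BIRC3 (1.02) and BAX rose, and the pore-forming BAK1 was among those that fell (-1.20). The higher count was 6 without siNT replicate 9, and the lower count was 2 without siNT replicate 7, siNT replicate 8 or miR-28 replicate 8, 3 without siNT replicate 9 or miR-28 replicate 9, and 2 with libraries scaled to their totals. The RGS family, which ends signals of G proteins, had 4 of 12 higher, with RGS2 at 1139.6, 1351 and 1503 with siNT and 3396, 4868 and 5512 with hsa-miR-28-5p (log2 change 1.77, standard error 0.24, limma adjusted p = 0.000917).

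Genes with a seed match were lower more often than those without one. A 3′UTR was matched to 12923 of the genes tested, of which 13.4% were lower. With an 8mer, the seed match AGCTCCT followed by A, 79 of 318 genes were lower (24.8%) with a median of -0.14. With AGCTCCT alone the share was 19.5% (328 of 1685), with GCTCCTA 18.1% (74 of 409), with the 6mer GCTCCT 14.4% (315 of 2193), and with no match 11.2% (930 of 8318). Genes with 2 of the longer matches were lower in 25.6% of cases, those with 1 in 18.6%, and those with 3 or more in 22.4%. Genes with an 8mer have long 3′UTRs, with a median of 3350 bases against 890 with no match, so the shares were also taken by length. Among short 3′UTRs 28.9% of genes with an 8mer or AGCTCCT were lower against 14.1% with no match, among middle ones 22.8% against 10.3%, and among long ones 18.1% against 6.46%. The classes are described without a test.

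**Figure D5:**
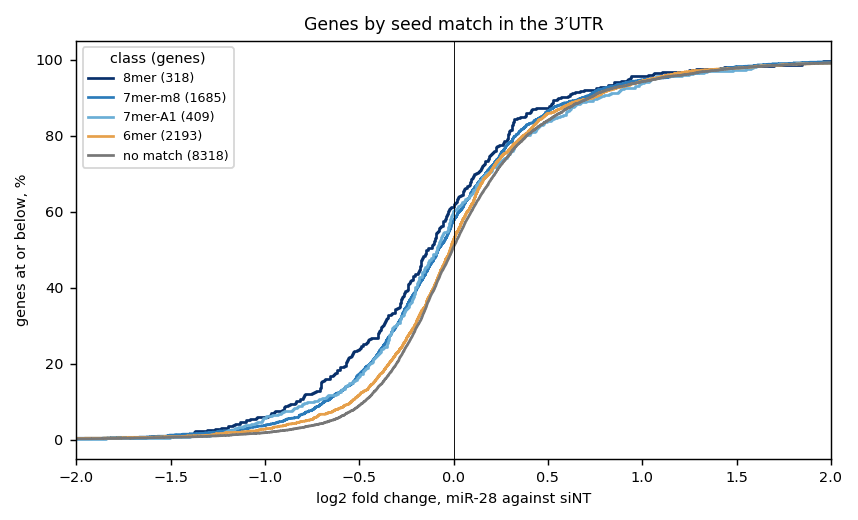
Cumulative share of genes (y axis, percent) at or below each log2 change of the mimic against siNT (x axis), by the strongest seed match in the 3′UTR. The curve of the 318 genes with an 8mer lies furthest to the left and that of the 8318 genes with no match furthest to the right through most of the range below 0.

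The genes whose sites are printed above fell in every mimic library. LYPD3, a surface protein of stratified epithelia, was 292, 466 and 414 with siNT and 81.8, 84.6 and 84.8 with hsa-miR-28-5p (log2 change -2.18, standard error 0.20, limma adjusted p = 0.000134). WSB2, a substrate adaptor of a ubiquitin ligase, was 2727, 2673 and 2782 with siNT and 925, 629 and 479 with hsa-miR-28-5p (log2 change -2.06, standard error 0.26, limma adjusted p = 0.000534). JAGN1, of the endoplasmic reticulum, was 775, 981 and 940.3 with siNT and 288, 265 and 194 with hsa-miR-28-5p (log2 change -1.86, standard error 0.23, limma adjusted p = 0.000519), and RSL24D1, a factor of large ribosomal subunit assembly, was 6414, 5256 and 6522 with siNT and 1949, 1756 and 1416 with hsa-miR-28-5p (log2 change -1.83, standard error 0.18, limma adjusted p = 0.000242). IMPDH1 fell further in hTERT RPE-1, with a difference of -1.85 between the lines (Welch t-test adjusted p = 0.000265). So did WSB2 (difference -1.26, Welch t-test adjusted p = 0.00556) and JAGN1 (difference -0.78, Welch t-test adjusted p = 0.0417). SLC7A11 fell in MCF10A and not in hTERT RPE-1, where its log2 fold change was 0.89 (difference 3.06, Welch t-test adjusted p = 0.000617).

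The mimic hsa-miR-708-5p, which has the same seed, differed from hsa-miR-28-5p in 228 genes (1.55%), 189 higher (1.28%) and 39 lower (0.265%) with hsa-miR-708-5p. With the replicate number as a block the count was 643. It was 135 without miR-28 replicate 8, 151 without miR-28 replicate 9, 368 without miR-708 replicate 7, 127 without miR-708 replicate 8 and 112 without miR-708 replicate 9. Of the 44 interferon-stimulated genes 40 were among those higher with hsa-miR-708-5p. In the stress response list 1 of 28 differed, ATF3, higher with hsa-miR-708-5p (difference 1.33, limma adjusted p = 0.028). In the p53 list 4 of 41 differed, TRIM22 higher and ZMAT3, TNFRSF10D and TIGAR lower with hsa-miR-708-5p. Among tRNA synthetases 2 of 23 differed, QARS1 lower and WARS1, the synthetase also induced by interferon, higher (difference 0.62, limma adjusted p = 0.0217). LYPD3 was less reduced by hsa-miR-708-5p (difference 1.35, limma adjusted p = 0.00372), and PMAIP1 (NOXA), a cell death gene that was not called with hsa-miR-28-5p, was higher with hsa-miR-708-5p (difference 1.36, limma adjusted p = 0.00712). The calls of ATF3 and WARS1 were lost without any 1 miR-28 library or miR-708 replicate 8 or 9, those of TIGAR and QARS1 without any library but miR-708 replicate 7, and that of PMAIP1 without miR-708 replicate 9. Both comparisons share the MCF10A libraries with hsa-miR-28-5p.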

How the data were processed

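RNA-seq of MCF10A and hTERT RPE-1 cells was deposited as 1 table of values per line. The authors aligned reads to hg38 with HISAT2 2.1.0 and estimated read counts per RefSeq gene in Partek, then divided them by a median-of-ratios size factor (DESeq2), so the deposited values are a normalised signal and not whole counts. Tables of the authors' own comparisons gave only gene coordinates here. Genes that reached 10 in 3 or more of the 9 MCF10A libraries were tested on log2(value + 1) with limma 3.58.1 (R 4.3.3, trend over the mean, 1 mean per group, Benjamini-Hochberg adjustment over all genes tested), so fold changes of low genes are understated. Differences between lines were tested with a Welch t-test on the fold changes and standard errors of 2 such fits. It used Welch-Satterthwaite degrees of freedom and Benjamini-Hochberg adjustment over genes tested in both lines. The fit was tested on simulated data. Spliced lengths and 3′UTRs were taken from 1 GRCh38 transcript per gene, promoters from RefSeq.

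Genes were named by rule: the 10 that rose and 10 that fell most (mean of 100 or more, no overlap of groups, without ribosomal protein and interferon genes), up to 5 per described list (mean of 50 or more), the 6 seed-matched genes that fell most, and markers. Other genes were singled out after their values were seen, and some items are not reported here. The lists and the comparison were chosen with earlier results of these data known. Deviations of same-numbered libraries from their group means correlated (0.263, 0.176 and 0.111 between siNT and hsa-miR-28-5p for replicates 7, 8 and 9). Those of siNT replicate 8 and miR-28 replicate 9 did so to a like degree (0.110), and the other differently numbered pairs gave -0.201 to 0.0214. The match by number was thus not set apart for replicate 9. Whether the numbers pair the libraries was not tested, and a fit with the replicate number as a block was an alternative. Libraries are labelled as biological replicates, and p-values measure the spread between them. Depth was read from the spacing of low values, 83.0 to 83.9% of which were whole multiples within 0.02 in these 6 libraries.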

Additional observations from a re-analysis of the deposited data

Results flagged for a closer look

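What set these results apart was a test of the difference between cell lines. The response to hsa-miR-28-5p differed between hTERT RPE-1 and MCF10A in 3127 genes at a Welch t-test adjusted p below 0.05 (23.4% of those tested in both lines). Among the genes that changed most in MCF10A, those with a higher log2 fold change in hTERT RPE-1 were CAMK2B (by 4.72), PHGDH (by 3.12), KIF21B (by 2.05) and CSMD3 (by 1.74). Those with a lower one were CSF1R (-2.88), CD74 (-2.78), CIITA (-1.95), IMPDH1 (-1.85) and LINC00963 (-1.23). These genes were chosen for a large change in MCF10A, and the same MCF10A values enter the differences. The choice thus favours a smaller change in hTERT RPE-1, although IMPDH1 and CSMD3 changed further there. With 3 libraries a group, single libraries were not tested as outliers.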

How the results depend on the processing

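Leaving out 1 library at a time gave 1949 to 3068 genes changed with hsa-miR-28-5p, 867 to 1430 of them higher and 1082 to 1638 lower. Asking for a 2-fold change as well left 854, 584 and 270, and scaling to library totals gave 1163 lower. The difference between the mimics held 643 genes with the replicate block, 150 without the trend, 134 at 2-fold and 112 to 368 with a library of any group left out (the hsa-miR-708-5p libraries were added to this check after seeing the data), and that between the lines 1136 at 2-fold. The block ended the call of none of the 327 genes named by rule. Over all alternatives 4384 of 4894 such calls held, 510 were lost and 0 changed direction. Without miR-28 replicate 8, 80 of 327 calls were lost, and without siNT replicate 8, 77 of 325. Counts of lists and families stayed within 1.5 times in 1009 of 1296 cases. Without siNT replicate 8, siNT replicate 9 or miR-28 replicate 8, 37, 38 and 37 of 81 counts moved further. Both totals include settings that changed little, such as adding 5 instead of 1 before the log, where all 81 counts stayed. Less the median of all genes, medians of 3 lists changed sign with a library left out: integrins ranged from -0.3087 to 0.0293 (without siNT replicate 9), BCL2 and cell death genes from -0.0955 to 0.002 (without miR-28 replicate 7) and S100 proteins and annexins from -0.206 to 0.0069 (without miR-28 replicate 7). In the splicing, proteasome, DNA replication and nuclear pore lists the counts fell by more than 1.5 times both with libraries scaled to their totals and with single libraries left out. The causes were not tested.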

Other observations

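Lists of cornified envelope, cytokine, ERK, NOTCH and lysosome genes did not pass the limits of number and share used for those described in the report. Of 38 genes of the cornified envelope, the protein coat of the outer skin, 7 were lower (18.4%) and 4 higher (10.5%). TGM1, the transglutaminase that crosslinks the envelope, was 5796, 3565 and 3041 with siNT and 1346, 981 and 628 with hsa-miR-28-5p (log2 change -2.08, standard error 0.32, limma adjusted p = 0.00155). PI3, the protease inhibitor elafin, was 13694, 11965 and 7332 with siNT and 3299.5, 3325 and 2003 with hsa-miR-28-5p (log2 change -1.92, standard error 0.27, limma adjusted p = 0.00103), and SPRR1B, a precursor of the envelope, changed by -1.40. CDSN, corneodesmosin, moved the other way, at 38.3, 28.9 and 31 with siNT and 102, 62.2 and 66 with hsa-miR-28-5p (log2 change 1.18, standard error 0.28, limma adjusted p = 0.0121), and so did the transcription factor KLF4 (0.95). Genes of terminal differentiation were thus found on both sides.

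Of 38 inflammatory cytokine genes 6 were higher (15.8%) and 4 lower (10.5%). IL11 was 13.2, 18.2 and 11.9 with siNT and 65.7, 25.7 and 38.4 with hsa-miR-28-5p (log2 change 1.44, standard error 0.46, limma adjusted p = 0.0429), LIF, of the same receptor family, was 265, 123 and 132 with siNT and 551, 271 and 315 with hsa-miR-28-5p (log2 change 1.14, standard error 0.34, limma adjusted p = 0.0335), and the chemokine CXCL1 was 3409.7, 8934 and 5459 with siNT and 7675, 16259.9 and 16703 with hsa-miR-28-5p (log2 change 1.22, standard error 0.33, limma adjusted p = 0.024). CXCL5, a chemokine close to CXCL1, was 171, 316 and 217 with siNT and 81.8, 84.8 and 71.1 with hsa-miR-28-5p (log2 change -1.51, standard error 0.28, limma adjusted p = 0.00423), and IL1RN, the interleukin 1 receptor antagonist, changed by -1.37. IL11 lost its call without any library but miR-28 replicate 8, LIF without siNT replicate 8 or 9 or miR-28 replicate 7 or 9, and CXCL1 without siNT replicate 7 or 9 or miR-28 replicate 8 or 9. Among immediate early and ERK feedback genes 7 of 42 were higher and 7 lower, with DUSP6 (-0.72), ETV4 (-1.08) and ETV5 (-0.67), read-outs of ERK signalling, lower and JUN (0.94) higher. In the NOTCH list 6 of 29 were lower (20.7%) and 3 higher (10.3%), against 12.0% and 10.7% of all genes. Its median was -0.05, so the list did not move as a whole. The ligand DLL1 (-2.27), the receptor NOTCH3 (-1.25) and the target HEY1 (-0.97, a call lost without siNT replicate 8, siNT replicate 9 or miR-28 replicate 7) fell, while NOTCH1 (0.57) rose. Of 52 lysosomal genes 11 were higher (21.2%) and 4 lower (7.69%), with TPP1 at 0.82 against PSAP at -1.16. All of these genes were singled out after their values were seen, and no set test was made.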
